A study of Mus musculus with 6 samples.

Results

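The marker genes described here are those whose products, or whose fluorescent reporter alleles, are used to isolate LT-HSCs. These long-term hematopoietic stem cells of the bone marrow self-renew and supply all blood lineages. The 10 genes are Procr, Ly6a, Kit, Slamf1, Cd48, Cd34, Flt3, Fgd5, Ctnnal1 and Pdzk1ip1. Members were found by gene symbol, and each matched 1 of the 47561 rows of the count tables. RNA was sequenced from LT-HSCs sorted out of mouse bone marrow, with 3 control libraries labelled WT and 3 libraries titled Piezo1 KO. Piezo1 encodes a calcium-permeable channel that opens under mechanical force, and the comparison asks what its loss changes in the RNA of these cells. The gate and antibodies of the sort, the part of Piezo1 deleted, the driver of the deletion, and the strain, age and sex of the mice are not given in the sources used here. Whether a library came from 1 mouse or a pool is not given either, and p-values therefore reflect only how far these libraries differ from each other, which may be technical.

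LT-HSCs lie within the bone marrow cells that lack mature lineage antigens and carry Sca-1 and c-Kit, a mixed population of stem cells and multipotent progenitors. Within that gate the SLAM receptor CD150 (Slamf1) and the protein C receptor EPCR (Procr) keep the stem cells, while CD48, CD34 and FLT3 are scarce on LT-HSCs and appear on progenitors. Fgd5, Ctnnal1 (alpha-catulin) and Pdzk1ip1 (Map17) became markers through reporter mice, whose fluorescent protein marks stem cells. Sorting reads the protein at the cell surface, whereas the values here are RNA, and in such bulk libraries fewer cells of a type and less RNA per cell cannot be told apart.

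Upstream sequence is shown for Procr and Kit, which with Ly6a had the smallest p-values of the 10 genes and lay in opposite directions. Each stretch is from RefSeq on GRCm38.p6, plus strand, read 5′ to 3′, and ends before the first transcript start annotated in RefSeq or GENCODE M21. Capitals mark an ETS word, AGGAAG.
Procr, chr2:155750967-155751116: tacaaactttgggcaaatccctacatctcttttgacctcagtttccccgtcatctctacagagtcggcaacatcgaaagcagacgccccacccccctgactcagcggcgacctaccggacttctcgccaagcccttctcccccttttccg
Kit, chr5:75574737-75574915: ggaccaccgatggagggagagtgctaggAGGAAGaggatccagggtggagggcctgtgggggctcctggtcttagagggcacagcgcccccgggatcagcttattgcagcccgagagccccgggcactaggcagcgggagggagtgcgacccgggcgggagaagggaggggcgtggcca
The 2 stretches differ in composition, with 56.0% G and C upstream of Procr and 69.3% upstream of Kit.

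Of the 10 genes, 9 had an entry in the RefSeq promoter table, and the 250 bases before the start were searched on both strands. Ly6a had no entry, so its promoter was not searched for any of the words. ETS words (CCGGAA or AGGAAG) were found in 4 of 9, those of Kit, Slamf1, Cd34 and Fgd5, against 38.0% of all promoters. GATA words (AGATAA or TGATAA) were found in 1 of 9, that of Slamf1, against 17.0%. E-box words (CAGCTG or CAGGTG or CACGTG) were found in 3 of 9, those of Procr, Slamf1 and Pdzk1ip1, against 31.6%. The Procr match, at -34 from the start used for the search, lies beyond the stretch printed above. It is therefore past the first annotated transcript start of Procr. The interferon-gamma-type word TTCNNNGAA was found in 0 of 9, against 7.18%. Matches of different words did not overlap in these windows.

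Total counts lay between 59435258 and 64653956 per library. In 2 of the KO libraries, replicates 2 and 3, the genotype field names another Piezo number than the title, and the groups follow the titles. Piezo1 itself held 17.0, 7.02 and 24.3 CPM (counts scaled to an equal library size with TMM factors) in control replicates 1 to 3 and 4.28, 7.99 and 9.46 CPM in KO replicates 1 to 3. Its level in the library labelled control replicate 2 was under that of 2 KO libraries, so estimates that include this library rest on its label. With the library left out, Fgd5 was the only marker to change sign. A swapped label was not tested. Control replicate 3 held 12765 CPM of 10 granulocyte genes, where the other control libraries held 13.1 and 61.0 CPM. KO replicates 1 to 3 held 5.13, 448 and 1142 CPM of them. Results for the leading genes are therefore also given without control replicate 2 or control replicate 3.

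Among the markers, Ly6a and Procr averaged 2.66-fold and 3.53-fold lower in KO than in control libraries, and Kit 1.73-fold higher. Cd48 averaged 1.64-fold higher and Cd34 1.44-fold lower, each with overlapping groups. Slamf1, Flt3, Fgd5, Ctnnal1 and Pdzk1ip1 differed by less than 1 SE of the fit or little more. None of the 10 passed an adjusted p of 0.05 in edgeR's quasi-likelihood test, where 0% of the 16022 genes tested did. At an unadjusted p under 0.05 there were 3 of 10 (Ly6a, Procr and Kit), against 11% of all genes tested. Of the markers, 8 had a negative log2 fold change of KO over control and 2 a positive one, with a median of -0.24, where 47.8% of all genes tested were negative and the median was 0.03. The groups did not overlap in 2 of 10, Ly6a and Kit, against 19.5% of all genes tested, a share close to the background. Separately, 1 of 10 lay lower without overlap in KO, against 8.76%, and 1 of 10 higher, against 10.7%.

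**Figure D1:**
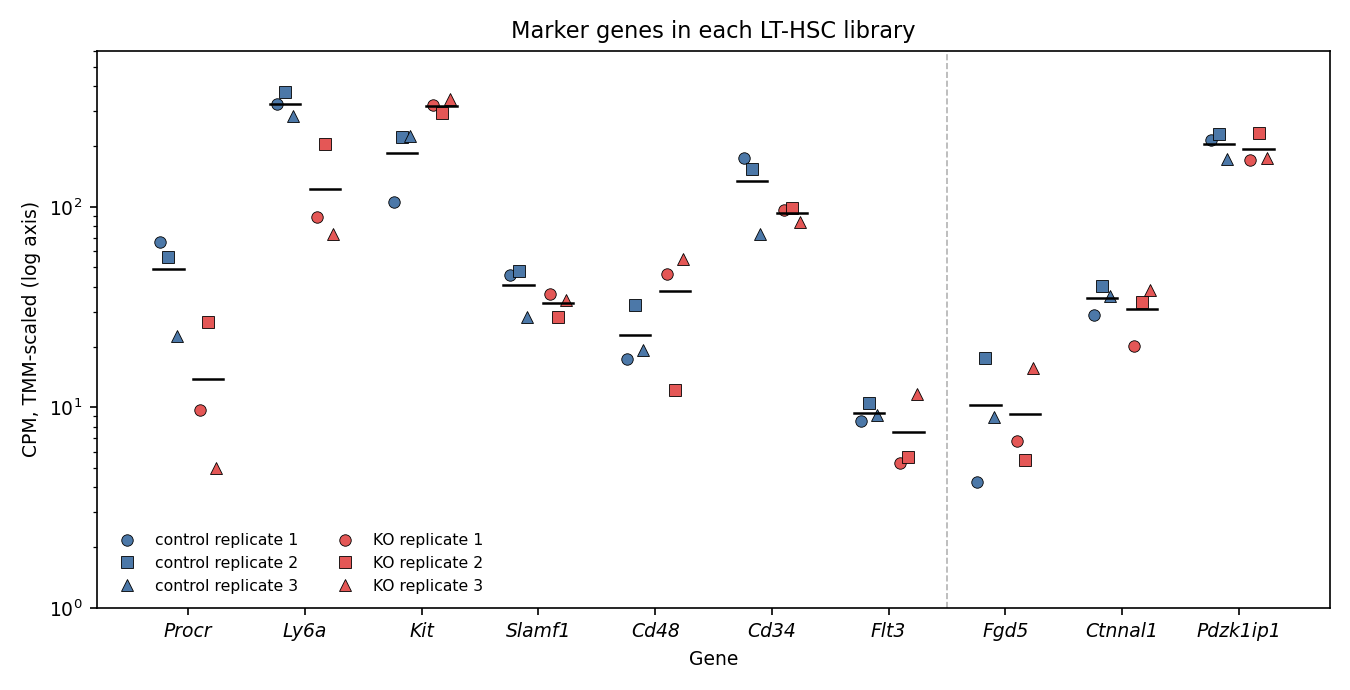
CPM of each of the 10 marker genes (log axis) in the 3 control (blue) and 3 KO (red) libraries. Symbols give the replicate number and horizontal lines the group means. The dashed line separates genes of surface proteins used in LT-HSC sorts from genes of reporter alleles. Ly6a is the gene whose KO points all lie below the control points, and Kit the one whose KO points all lie above.

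Ly6a encodes Sca-1, a small GPI-anchored protein of the Ly6 family and the S of the LSK gate. Its level was 324, 373 and 284 CPM in control replicates 1 to 3 and 89.2, 206 and 72.8 CPM in KO replicates 1 to 3. All KO libraries lay below all control libraries, and KO replicate 2 stood between the other KO libraries and the control group. The means were 327 ± 44.7 and 123 ± 72.9 CPM (SD, n = 3 each). The log2 fold change was -1.41 (SE 0.39), with an unadjusted p of 0.00829 and an edgeR adjusted p of 0.297, rank 446 among the p-values of all genes tested. It was -1.33 without control replicate 2 and -1.503 without control replicate 3. Without KO replicate 2 it was -2.01, over 1.5 times further in fold.

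DESeq2 called Ly6a lower in KO, at an adjusted p of 0.00702, the 1 marker of 10 that any tool called. DESeq2 called 4.82% of the genes it tested, and 2.46% as lower in KO. Over the alternatives other than DESeq2 the adjusted p of Ly6a ranged from 0.192 to 0.662. Ly6a lies on chromosome 15 among related genes. Of the 906 windows of 50 bases in its longest RefSeq-matched transcript, 91 also occur in transcripts of Ly6c1, Ly6i, Ly6a2 or Ly6c2. Ly6a2 held 52.4 CPM in control replicate 3, the library richest in granulocyte genes, and 0 to 5.80 CPM elsewhere. With the Ly6a and Ly6a2 counts summed, the log2 fold change was -1.45.

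Procr encodes EPCR, a receptor for activated protein C that is also displayed by endothelium. Its level was 67.1, 56.5 and 22.6 CPM in control replicates 1 to 3 and 9.68, 26.7 and 4.99 CPM in KO replicates 1 to 3. Again KO replicate 2 was the highest of its group, and here it lay above control replicate 3, so the groups overlapped. Procr averaged 48.7 ± 23.2 CPM in the controls and 13.8 ± 11.4 CPM in KO (SD, n = 3 each), the largest difference in fold of the 10 markers. The log2 fold change was -1.82 (SE 0.67), with an unadjusted p of 0.0296 and an edgeR adjusted p of 0.397. Without KO replicate 2 it was -2.73, over 1.5 times further in fold, and without control replicate 2 or 3 it was -1.73 and -2.16.

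Kit encodes the receptor tyrosine kinase for stem cell factor and is carried by stem cells and most early progenitors. It held 106, 223 and 226 CPM in control replicates 1 to 3 and 323, 293 and 344 CPM in KO replicates 1 to 3. Every KO library exceeded every control library, and control replicate 1 stood well below the others of its group. The means were 185 ± 68.4 CPM in the controls and 320 ± 25.8 CPM in KO (SD, n = 3 each). The log2 fold change was 0.79 (SE 0.29), with an unadjusted p of 0.0300 and an edgeR adjusted p of 0.398. It was 0.51 without control replicate 1, 0.93 without control replicate 2 and 0.96 without control replicate 3.

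Slamf1 encodes CD150, a SLAM receptor used to keep stem cells in LT-HSC sorts. Control replicates 1 to 3 held 45.7, 48.0 and 28.1 CPM of it and KO replicates 1 to 3 held 36.6, 28.1 and 34.4 CPM. The KO values lay within the control range. On the log2 scale KO over control came to -0.30 (SE 0.27), with an edgeR adjusted p of 0.773.

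Cd48 encodes another SLAM family protein, which is absent from LT-HSCs and found on most other blood cells. Its level was 46.3, 12.2 and 55.0 CPM in KO replicates 1 to 3, against 17.4, 32.3 and 19.3 CPM in control replicates 1 to 3. KO replicate 2 was thus the lowest of all 6 libraries and KO replicates 1 and 3 the highest pair. KO over control gave a log2 fold change of 0.72 (SE 0.55), with an edgeR adjusted p of 0.712. Without KO replicate 2 it was 1.14, at an unadjusted p of 0.0184 and an adjusted p of 0.544, and without KO replicate 3 it was 0.33.

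Cd34 encodes a sialomucin that marks progenitors and short-term stem cells in adult mice. Its level was 175, 154 and 73.4 CPM in control replicates 1 to 3 and 96.9, 99.0 and 83.6 CPM in KO replicates 1 to 3. The KO libraries lay close together, between control replicate 3 and the other control libraries. Its log2 fold change was -0.52 (SE 0.31), with an edgeR adjusted p of 0.603. Without control replicate 3 it was -0.82, at an unadjusted p of 0.00256 and an adjusted p of 0.185. In GENCODE M21 a gene on the opposite strand, Gm16897, shares exon bases with Cd34, and the strand of the counting is not stated. That gene held 0.201 to 2.41 CPM in the 6 libraries.

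Flt3 encodes the FLT3 ligand receptor of multipotent and lymphoid-primed progenitors and was low in every library. Control replicates 1 to 3 held 8.57, 10.5 and 9.11 CPM and KO replicates 1 to 3 held 5.30, 5.63 and 11.7 CPM. Below the control range lay KO replicates 1 and 2, while KO replicate 3 was the highest of the 6 libraries. KO over control gave a log2 fold change of -0.32 (SE 0.48), with an edgeR adjusted p of 0.881, and -0.79 without KO replicate 3.

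Of the reporter genes, Fgd5 encodes a guanine nucleotide exchange factor for Cdc42 that is shared by stem cells and endothelium. It held 4.24, 17.6 and 8.91 CPM in control replicates 1 to 3 and 6.81, 5.43 and 15.6 CPM in KO replicates 1 to 3. Fgd5 varied within each group by more than the means differed, from 257 counts in control replicate 1, the lowest count of any marker, to 1199 in control replicate 2. On the log2 scale KO over control came to -0.14 (SE 0.66), with an edgeR adjusted p of 0.972. The sign reversed without control replicate 2 (0.48), without KO replicate 1 (0.02) and without KO replicate 2 (0.13), and the value was -0.75 without KO replicate 3.

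Ctnnal1 encodes alpha-catulin, a relative of alpha-catenin. It held 28.9, 40.2 and 36.0 CPM in control replicates 1 to 3 and 20.2, 33.6 and 38.5 CPM in KO replicates 1 to 3. The groups overlapped, with KO replicate 1 the lowest of the 6 libraries. Its log2 fold change was -0.19 (SE 0.30), with an edgeR adjusted p of 0.895.

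Pdzk1ip1 encodes the small membrane protein Map17 and lies next to Tal1 on chromosome 4. Its level was 215, 229 and 174 CPM in control replicates 1 to 3 and 172, 234 and 176 CPM in KO replicates 1 to 3. Both groups covered nearly the same range. The log2 fold change was -0.09 (SE 0.19), with an edgeR adjusted p of 0.926, and the SE was the smallest among the 10 markers.

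**Figure D2:**
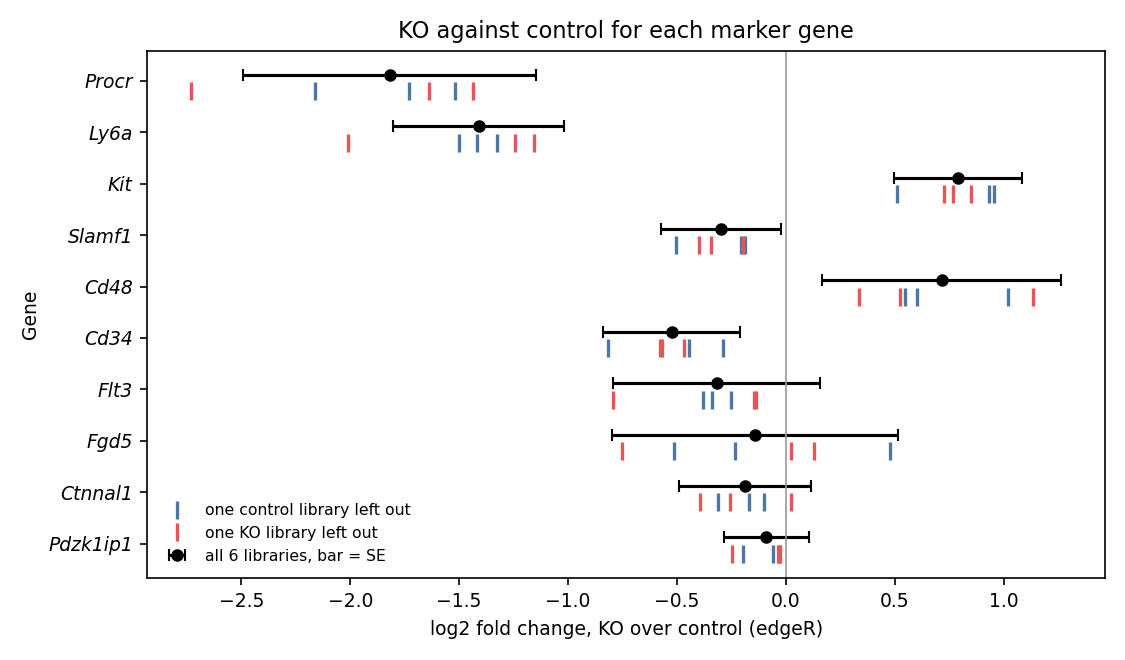
Log2 fold change of KO over control for each marker gene (horizontal axis), with the estimate from all 6 libraries as a black point with its SE and the estimates with 1 library left out as ticks (blue for a control library, red for a KO library). The ticks of Fgd5 and Ctnnal1 lie on both sides of 0, and those of every other marker stay on 1 side.

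To set levels of different genes side by side, CPM were divided by the length of the longest RefSeq-matched transcript in kb. In control libraries the order was Ly6a (342 ± 46.8 CPM per kb), Pdzk1ip1 (183 ± 25.6), Cd34 (52.5 ± 21.0), Kit (35.3 ± 13.1), Procr (30.5 ± 14.5), Cd48 (19.4 ± 6.83), Slamf1 (15.1 ± 4.03), Ctnnal1 (9.56 ± 1.56), Flt3 (2.57 ± 0.273) and Fgd5 (1.68 ± 1.11), each SD with n = 3. From Cd34 to Slamf1 each gene differed from the next in this order by less than the larger SD of the pair, as did Flt3 from Fgd5. The other neighbours differed by more than that. In KO libraries Pdzk1ip1 came before Ly6a, with 172 ± 31.0 and 129 ± 76.3 CPM per kb, and these overlapped. Kit followed with 61.0 ± 4.91 CPM per kb, while Procr stood at rank 7 with 8.64 ± 7.17. Flt3 and Fgd5 were at ranks 9 and 10 in both groups. Transcripts of Cd34 and Cd48, whose proteins are scarce on LT-HSCs, were thus present in every library, at levels per kb above those of Flt3.

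Pairs of markers were then compared within a library as the log2 ratio of their CPM, which cannot be moved by library scaling. The Ly6a to Kit ratio was 1.61, 0.74 and 0.33 in control replicates 1 to 3 and -1.86, -0.50 and -2.24 in KO replicates 1 to 3. These ranges did not overlap, which follows from Ly6a being lower and Kit higher in every KO library and is no further result. Procr to Cd34 was -1.38, -1.44 and -1.70 in control and -3.32, -1.89 and -4.07 in KO replicates 1 to 3, also without overlap. Each of Procr and Cd34 alone overlapped between the groups, and control replicate 3 was the lowest control library for both. Slamf1 and Cd48 are the SLAM family pair among the markers, and whether these cells were sorted on them is not given. Their ratio was 1.39, 0.57 and 0.54 in control and -0.34, 1.202 and -0.68 in KO replicates 1 to 3. KO replicate 2 thus lay within the control range and the other KO libraries below it. Fgd5 to Flt3 overlapped, with -1.01, 0.74 and -0.03 in control and 0.36, -0.05 and 0.42 in KO replicates 1 to 3. No test was made on these ratios.

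**Figure D3:**
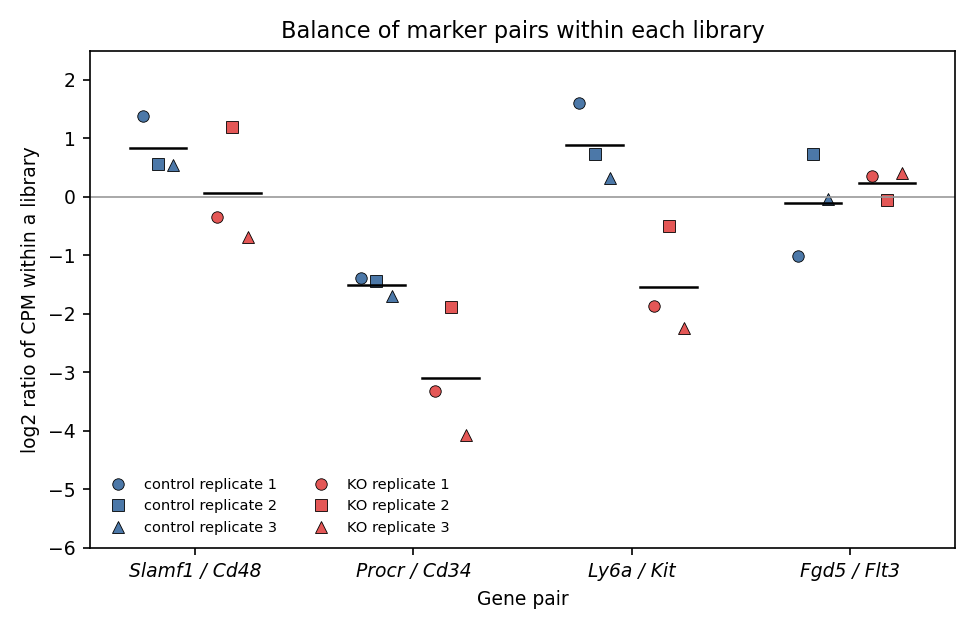
Log2 ratio of the CPM of 2 marker genes within each library (vertical axis) for 4 gene pairs, in control (blue) and KO (red) libraries, with symbols for the replicate number and lines for the group means. KO replicate 2 (red square) lies nearest the control libraries in the Slamf1 to Cd48, Procr to Cd34 and Ly6a to Kit pairs.

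Genes with the most similar profile over the 6 libraries were sought among 9741 genes averaging at least 5 CPM, by Pearson's r of log2 CPM. The points share the group difference and the library, and with 6 points and so many genes high values of r arise readily. For Ly6a these were Phlda2 (r = 0.995), Upp1 (0.990) and Ypel5 (0.988), and for Procr they were Dync1i2 (0.990), Tmem170 (0.990) and Asb3 (0.988). Slamf1 was closest to Fam89b (0.997), Rtn4ip1 (0.993) and Cdc23 (0.990), and Cd48 to Gtf2ird1 (0.985), Hcfc2 (0.977) and Ercc6l2 (0.976).

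Other genes of the same families and uses were read from lists, all chosen with earlier results of these data known. Among 18 other LT-HSC surface markers, all tested, 2 lay above and 3 below control with an unadjusted p under 0.05, with 5.44% and 5.59% of all genes tested for comparison, and 0 passed in edgeR after adjustment over all genes. The median log2 fold change was -0.08. Jam3, a junctional adhesion molecule, held 28.2, 33.2 and 20.2 CPM in the controls and 3.76, 7.77 and 6.04 CPM in KO replicates 1 to 3. Cd82, a tetraspanin, averaged 50.03 ± 15.6 CPM in the controls and 24.0 ± 1.83 CPM in KO. The integrin genes Itgb3 and Itga6 went the other way, with 15.0 ± 3.13 against 41.1 ± 7.34 CPM and 71.0 ± 19.6 against 140 ± 28.0 CPM (SD, n = 3 each). These 4 genes were named for the smallest p of the list. Their groups did not overlap, as in 19.5% of all genes tested, and the edgeR adjusted p-values were 0.255 to 0.277.

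Of 12 other reporter and identity genes, 11 were tested and Gprc5c had no count in any library. At an unadjusted p under 0.05, 2 were higher in KO and 0 lower, against 5.44% and 5.59% of all genes tested, and 0 passed in edgeR after adjustment. Vwf, the platelet adhesion protein whose reporter marks platelet-biased stem cells, held 15.1, 37.5 and 28.3 CPM in the controls and 57.7, 79.7 and 91.5 CPM in KO replicates 1 to 3. Its groups did not overlap, as in 19.5% of all genes tested. Its log2 fold change was 1.501 (SE 0.36), with an edgeR adjusted p of 0.259. Msi2, an RNA-binding protein of stem cells, averaged 72.3 ± 3.30 CPM in the controls and 104 ± 20.0 CPM in KO. The transcription factor genes Gata2 and Meis1 overlapped between groups, with log2 fold changes of 0.59 (SE 0.26) and 0.44 (SE 0.21).

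In the SLAM family and its adaptors, 5 of 9 genes were tested, 1 lay higher and 0 lower in KO at an unadjusted p below 0.05, and 0 passed in edgeR after adjustment. Over all genes tested the shares were 5.44% higher and 5.59% lower. The gene of this family was Sh2d1b1, the adaptor EAT-2, with 0 counts in all 3 control libraries and 122, 70 and 374 counts in KO replicates 1 to 3. Its KO mean of 3.07 CPM was 62.5-fold above a floor of 3 counts in each control library (0.0440 to 0.0539 CPM), which covers counting error only. The edgeR adjusted p was 0.255. Without any control count, Sh2d1b1 passed the expression filter through the KO libraries alone. Neither its p-value nor the count of 1 higher gene, which is Sh2d1b1 itself, is therefore read as support. Cd244a, the receptor for CD48, held 6.44, 3.08 and 1.71 CPM in the controls and 0, 0 and 0.978 CPM in KO replicates 1 to 3. Ly9 held 5.40, 4.45 and 7.14 CPM in the controls and 0, 1.78 and 0 CPM in KO replicates 1 to 3, and Slamf8 at most 4.58 CPM in any library.

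Among 24 family relatives and partners of the markers, 17 were tested, 1 lay higher and 1 lower in KO at an unadjusted p below 0.05, and 0 passed in edgeR after adjustment. Each count is close to the background, with 5.44% of all genes tested higher and 5.59% lower. F2r, the thrombin receptor that EPCR-bound protein C also acts through, averaged 85.1 ± 18.5 CPM in the controls and 140 ± 30.7 CPM in KO. Cd164, a sialomucin like Cd34, averaged 158 ± 27.5 and 111 ± 1.33 CPM (SD, n = 3 each). Neither F2r nor Cd164, both named for their small p, overlapped between groups, as was so for 19.5% of all genes tested. Cdc42, the GTPase that Fgd5 acts on, stood at -0.49 (SE 0.22) on the log2 scale of KO over control, and Tal1, the neighbour of Pdzk1ip1, 0.77 (SE 0.36), both with overlap.

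Of 13 other genes of the Ly6 cluster, 4 were tested, 0 lay higher and 1 lower in KO at an unadjusted p below 0.05, and 0 passed in edgeR after adjustment. Of all genes tested, 5.44% were higher and 5.59% lower. Ly6e, a relative of Ly6a that is broadly expressed, held 2215, 1698 and 1629 CPM in the controls and 1305, 1444 and 1115 CPM in KO replicates 1 to 3. Its KO libraries lay below all control libraries, as for Ly6a and for 8.76% of all genes tested. The log2 fold change of Ly6e was -0.52 (SE 0.18), with an edgeR adjusted p of 0.373. Ly6c2 held 227 CPM in control replicate 3 and at most 25.7 CPM elsewhere, and Ly6c1 and Lynx1 overlapped between groups.

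Ly6a is known as an interferon-inducible gene, so a list of 22 interferon response genes is given beside it. All 22 were tested, 18 had a negative log2 fold change, 9 were lower and 0 higher at an unadjusted p below 0.05, and 0 passed in edgeR after adjustment. For comparison, 47.8% of all genes tested were negative, 5.59% lower and 5.44% higher. The summed level of the list was 2024 to 2696 CPM in the controls and 1341 to 1911 CPM in the KO libraries, without overlap, and was highest among KO libraries in replicate 2, as was that of Ly6a. The 4 with the smallest p were Rtp4, Igtp, Gbp3 and Irgm1, with log2 fold changes of -0.90, -1.36, -1.21 and -1.54. Their part in the Ly6a result was not tested.

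Markers of other cells that a sort could carry over are given as summed CPM in each library. The sum of 12 megakaryocyte and platelet genes, of which Gp6 was at 0 in every library, was 1066 to 1425 CPM in the controls and 2026 to 2964 CPM in the KO libraries. Of its 10 tested genes all 10 had a positive log2 fold change and 7 an unadjusted p under 0.05, while 0 passed in edgeR after adjustment. Among all genes tested, 8356 of 16022 were positive and 5.44% were higher at that p. The erythroid and globin sum of 13 genes, none at 0 throughout, overlapped, at 5110 to 10554 CPM and 9571 to 28880 CPM. Globin made up 0.0274% to 0.352% of counts in control and 0.741% to 2.43% in KO libraries, and was highest in KO replicate 1. The other genes of that list did not all follow globin: over its 13 genes 8 were positive and 5 negative, with 4 higher and 2 lower in KO at an unadjusted p under 0.05, against 5.44% and 5.59% of all genes tested, and 0 passed in edgeR after adjustment. Car2, a carbonic anhydrase gene, held 2857, 2345 and 2640 CPM in control replicates 1 to 3 and 2266, 1474 and 1160 CPM in KO replicates 1 to 3. The granulocyte sum reached 12765 CPM in control replicate 3, against 13.1 and 61.0 CPM in control replicates 1 and 2. It was 5.13, 448 and 1142 CPM in KO replicates 1 to 3, so KO replicates 2 and 3 also exceeded those 2 control libraries.

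Other lineages were low apart from single genes. The lymphoid-primed sum of 10 genes was 19.3 to 36.3 CPM in the controls and 15.3 to 34.7 CPM in KO libraries, with Dntt, Rag1 and Rag2 at 0 in all, and the myeloid progenitor sum of 9 genes, mostly Prtn3, was 185 to 195 and 135 to 218 CPM. The B lineage sum of 8 genes, with Igll1 at 0, was 31.1 to 89.1 and 33.7 to 38.1 CPM, and was mostly Cd79b. The monocyte, macrophage and dendritic sum of 10 genes, with Siglech at 0, was 28.2 to 83.0 and 24.0 to 55.8 CPM. The T and NK sum of 9 genes was 131 to 209 and 247 to 264 CPM, of which Nkg7 gave at least 127 CPM in each library, while Cd8a and Ncr1 were at 0. Stroma and endothelium genes, 9 in number with Lepr and Cdh5 at 0, summed to 27.8 to 65.3 and 100 to 138 CPM, mostly Vwf and Pecam1. Vwf, also in the list of reporter and identity genes above, did not overlap between groups, while Pecam1 did. Endothelium also carries Procr and Fgd5, and some but not all of its genes in the list were counted. Cdh5 had no count in any library. Pecam1 held 12.1, 25.6 and 15.2 CPM in control replicates 1 to 3 and 36.7, 15.2 and 31.7 CPM in KO replicates 1 to 3. Kdr, the VEGF receptor gene, held 0.693, 1.07 and 2.75 CPM in control replicates 1 to 3 and 2.70, 3.92 and 10.8 CPM in KO replicates 1 to 3, with overlapping groups. The part of the megakaryocyte, globin, T and NK and stroma sums in the marker differences was not tested.

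**Figure D4:**
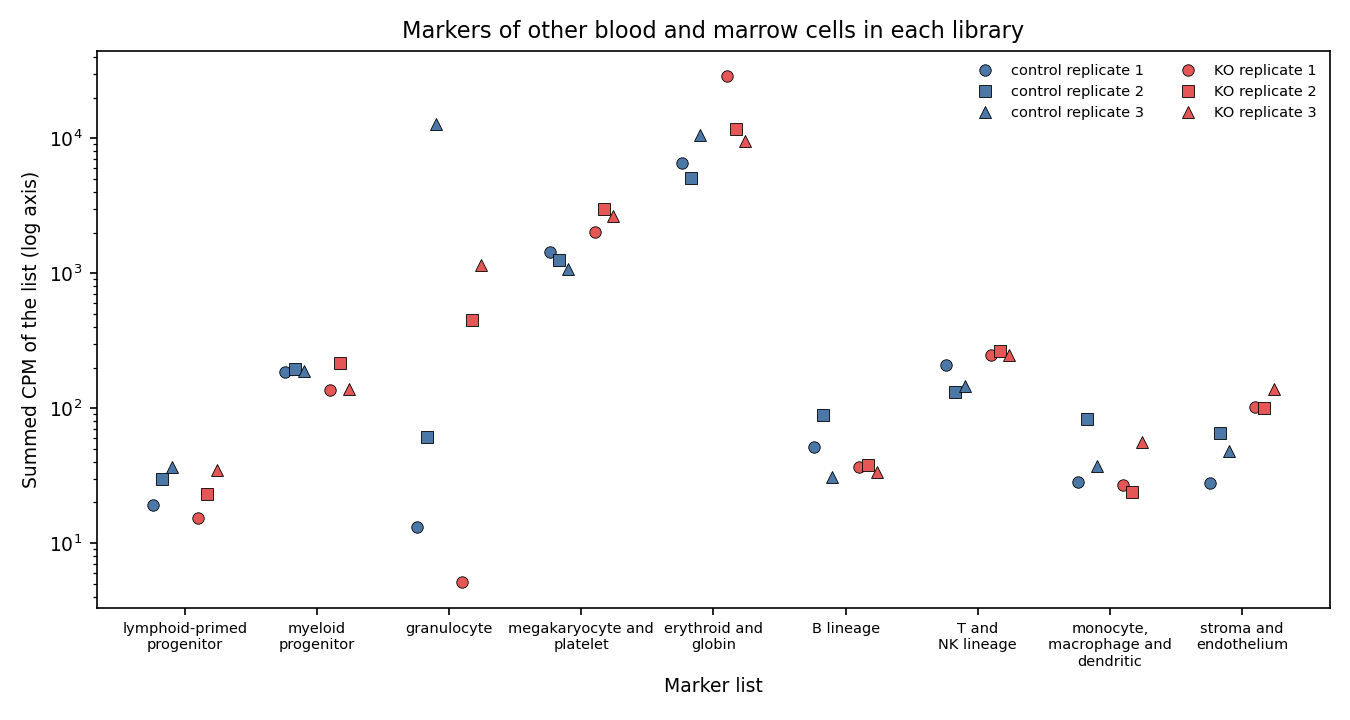
Summed CPM (log axis) of 9 marker lists of other blood and marrow cells in each control (blue) and KO (red) library, with symbols for the replicate number. The granulocyte sum stands out in control replicate 3 at 12765 CPM. KO libraries lie above control libraries in the megakaryocyte and platelet, T and NK, and stroma and endothelium lists. In every library Nkg7 gives most of the T and NK sum and Vwf most of the stroma and endothelium sum.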

How the data were processed

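RNA of sorted mouse LT-HSCs was measured in 3 control and 3 Piezo1 KO libraries, made with TRIZOL and a TruSeq kit per the labels' protocols. The deposited values are raw whole-number counts per gene. Per the submitters' processing notes the tools were featureCounts 1.6.4, HISAT2 2.1, cutadapt 1.16.5, bcl2fastq 2.19 and DESeq2 2.11.40.6, with the build mm10. No settings or strand are stated, so reads of overlapping or similar genes may be misassigned. Groups follow the titles.

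The counts went through edgeR 4.0.16 (R 4.3.3) with filterByExpr, TMM scaling and its two-sided quasi-likelihood test on the 6 libraries, with Benjamini-Hochberg adjustment over 16022 genes. The common coefficient of biological variation came to 0.755. The SE is the absolute log2 fold change over the square root of F. The steps were tested on simulated counts. Alternatives were other size factors and filters, DESeq2 1.42.0, limma-voom (limma 3.58.1), the replicate number as a block, globin left out, each library left out and other thresholds. Lengths and overlaps came from GENCODE M21.

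Every pair of libraries differed beyond sampling noise (chi-square per gene at least 122.6). Members and lists were chosen with earlier results of these data known. The text names the 10 members, Piezo1, up to 4 genes of each related list by smallest p, and 3 genes closest in profile to each of Ly6a, Procr, Slamf1 and Cd48. Ly6a2, Gm16897 and the single genes named in lists of other cells were picked after their values were seen.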

Additional observations from a re-analysis of the deposited data

How the results depend on the processing

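Of the 10 markers, 8 kept the sign of their log2 fold change under all 16 alternative fits. With 1 library left out, Fgd5 ranged from -0.75 to 0.48 and Ctnnal1 from -0.39 to 0.023. Fgd5 reversed to 0.48 (control replicate 2 left out), 0.02 (KO replicate 1) and 0.13 (KO replicate 2), and Ctnnal1 reversed without KO replicate 1. DESeq2 called 775 genes and 1 marker, Ly6a (log2 fold change -1.43), where edgeR called 0 of either. At an unadjusted p under 0.05 edgeR had 1767 genes and 3 markers. With a filter of at least 5 CPM in 3 libraries 1 gene was called and 0 markers, and over the fits with 1 library left out 0 to 1 genes and 0 markers. The 1 gene there was called without control replicate 1. The causes were not tested. The unadjusted p of Ly6a stayed under 0.05 whichever library was left out, that of Procr passed it without control replicate 1 or 2 or KO replicate 1 or 3, and that of Kit without any 1 KO library. The alternative with Ly6a and Ly6a2 summed was chosen after seeing the data. Replicate numbers are shared between groups but nothing says that they pair libraries. The correlations of deviations from the group means were 0.038, 0.016 and 0.033 for same-numbered libraries. These were each library's highest but lay near 0, so they do not show whether libraries pair. With the replicate number as a block, 0 genes and 0 markers were called and the log2 fold changes of Procr, Ly6a and Kit were -2.02, -1.56 and 0.87. By coding length in place of transcript length, Procr and Kit, and Slamf1 and Cd48, changed places in the control order, at ranks 4, 5, 6 and 7. Markers had at least 257 counts in each library. Whether depth or the spread between libraries limits these comparisons was not tested.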
